A study of Mus musculus with 2 samples.

Results

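Amino acid and neurotransmitter transporters are membrane carriers of the solute carrier (SLC) families that move amino acids, glutamate, GABA, glycine, taurine, creatine and monoamines across the plasma membrane, or load them into vesicles and lysosomes. The carriers described here were the rows of the deposited expression table whose symbol belongs to the families SLC1, SLC3, SLC6, SLC7, SLC17, SLC32, SLC36, SLC38 or SLC43. The rule used symbols only, and it found 62 of the 17359 genes listed. Of these, 38 had a mean of at least 1 TPM (a level per transcript length, scaled to the same total in each library) over both libraries, and 24 lay below it.

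The RNA came from cultures labelled mouse neural stem cells, dividing precursors of neurons and glia, that were transfected with an siRNA against Chd4 (siChd4, 1 library) or with a scrambled siRNA (siSCR, 1 library). Chd4 is an ATPase of the NuRD chromatin remodelling complex, and the series concerns the nucleoporin Seh1 in neurogenesis. Apart from the siRNA, the labels give both libraries the same cell type, and the sources used here give no strain, age, siRNA dose or time of harvest. As each group is 1 library, no test between conditions was run, and no difference below has a check against the spread between cultures.

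As background, glutamate released by neurons is cleared mainly by sodium-coupled SLC1 carriers of astrocytes and radial glia. GABA, glycine, taurine and creatine enter cells through SLC6 carriers, and glutamine, the precursor of both glutamate and GABA, passes between glia and neurons through SLC38 carriers. Large neutral and cationic amino acids enter through SLC7 carriers, several of which reach the cell surface only when bound to an SLC3 heavy chain. Vesicular carriers of the SLC17 and SLC32 families fill synaptic vesicles with glutamate, GABA or glycine.

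The siChd4 library held 20072009 estimated counts and the siSCR library 19816811. Chd4 was at 203 TPM with siChd4 and 250 TPM with siSCR, a fold of 0.815 (95% interval from counting error 0.795 to 0.836), so the direction followed the label and the difference was small. Folds are siChd4 over siSCR in TPM, and their exact Clopper-Pearson intervals cover counting error only. The neural stem cell markers Nes (396 TPM with siChd4 and 328 TPM with siSCR), Sox2 (336 and 314 TPM) and Fabp7 (7004 and 6105 TPM) were abundant in both libraries, and of 15 markers of these cells 2 were at least 1.5-fold higher in siChd4 and 1 lower. Of 16 neuronal markers that passed the filter on level, 7 were higher by that much and 0 lower, and of 12 oligodendrocyte lineage markers 8 were higher and 0 lower. Summed over all listed markers, neuronal genes reached 1151 TPM with siChd4 and 827 TPM with siSCR, and oligodendrocyte lineage genes 3066 and 2931 TPM. Most of the neuronal sum was Map2 (516 TPM with siChd4 and 427 TPM with siSCR) and Gap43 (362 and 255 TPM). Most of the oligodendrocyte sum was Olig1 (1872 TPM with siChd4 and 1879 TPM with siSCR) and Olig2 (880 and 890 TPM). Of 14 astrocyte markers 2 were higher and 3 lower, with sums of 4205 TPM with siChd4 and 3776 TPM with siSCR. The astrocyte list includes the carriers Slc1a2, which is among the lower ones, Slc1a3 and Slc6a11. The stem cell list includes Slc1a3, and the neuronal list Slc17a7 and Slc32a1, both below the filter. These marker counts and sums are therefore in part the carriers' own values. Of the markers of other cells that passed the filter, 1 of 2 of microglia and 3 of 6 of fibroblasts and meninges were higher and 0 lower, 0 of 4 endothelial and mural ones differed by that much, and 1 of 5 ependymal ones was lower. The sums of these lists lay between 16.5 and 71.9 TPM with siChd4 and between 12.7 and 61.9 TPM with siSCR. The markers Slc17a6 of neurons, Tmem119, C1qb and Trem2 of microglia, Cldn5 of endothelial cells and Tmem212 of ependyma were not found among the genes listed. No marker that was found was at 0 in both libraries. This says little about detection, as 17352 of the 17359 genes listed were above 0 in at least 1 library. In bulk RNA, fewer cells of a type and less RNA per cell cannot be told apart.

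Most of the carriers were at similar levels in both libraries. On the log2 scale of TPM plus 1, 4 of the 38 were at least 1.5-fold higher in siChd4, among them the exchanger gene Slc7a10, the glutamate carrier gene Slc1a1 and the proline and tryptophan carrier gene Slc36a4. Another 2 were at least 1.5-fold lower, the glutamate carrier gene Slc1a2 and the arginine and lysine carrier gene Slc7a2. That is 10.5% of the carriers higher, beside 6.75% of all 12882 genes that passed the filter, and 5.26% lower, beside 4.47% of all genes. The carriers' shares were near those of all genes. On FPKM, with 1 added as for TPM, the numbers over all genes were 721 higher and 295 lower, against 870 and 576 on TPM. The carriers numbered 4 and 2 on either unit. The carriers' median log2 ratio was 0.07 and that of all genes -0.04. Of the 38 carriers, 23 (60.5%) lay above 0, beside 44.5% of all genes.

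**Figure D1:**
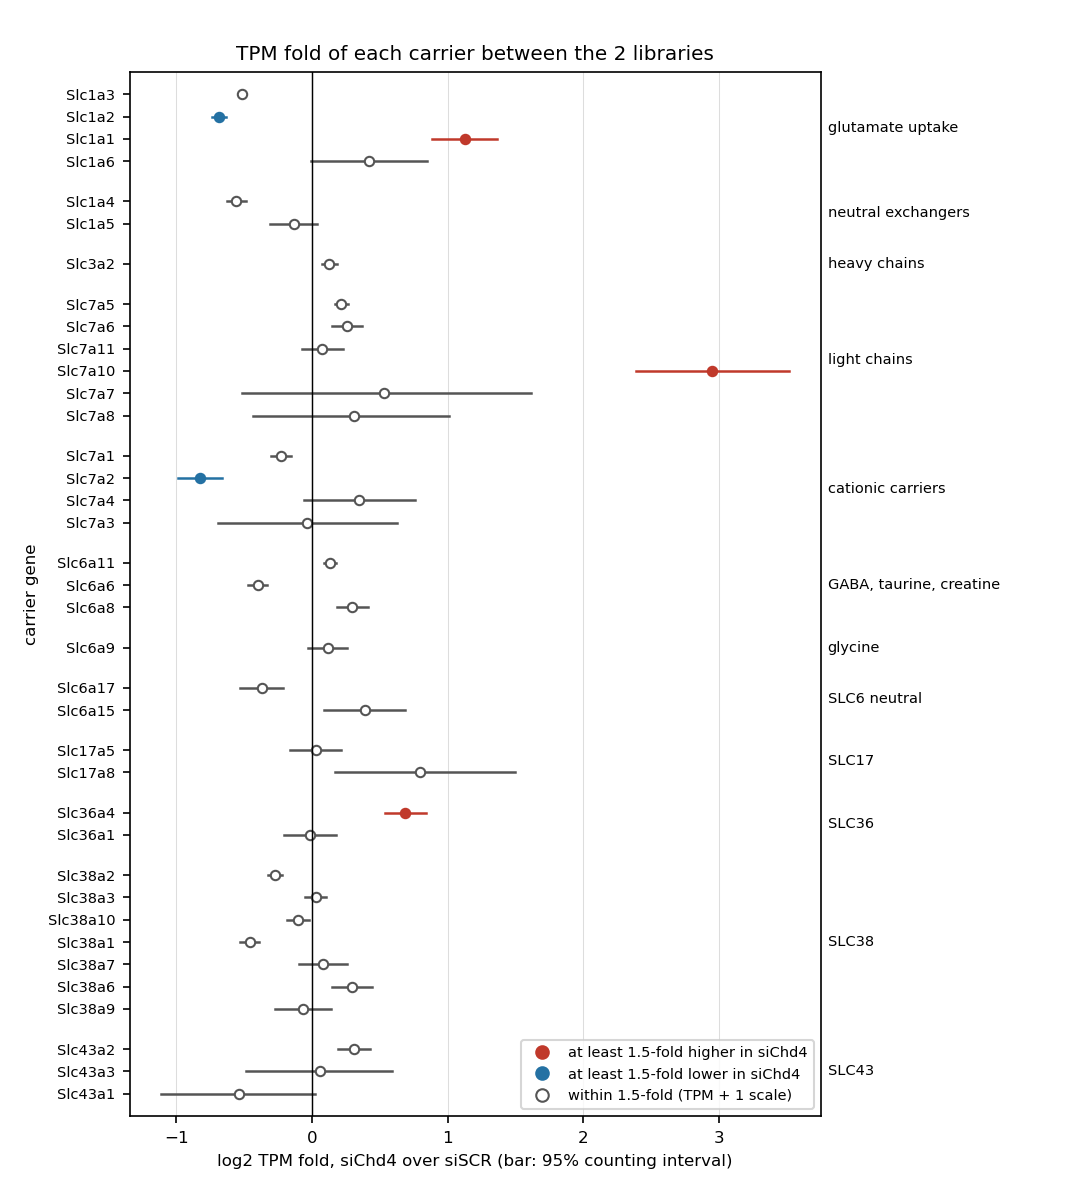
The log2 TPM fold of siChd4 over siSCR is shown for 37 carriers with a mean of at least 1 TPM, ordered by role, with bars for the 95% counting interval. Filled points passed 1.5-fold on the TPM plus 1 scale (3 higher, 2 lower), and open points did not; Slc17a8 has a TPM fold of 1.73 but lies within the limit on the TPM plus 1 scale.

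Counting error was small for most carriers and did not cover the spread between cultures. The counting interval of the fold excluded 1 for 23 of the 38 carriers, including all 6 past the limit and 17 within it. The share of all genes whose interval excludes 1 was not computed, so this count is not a result about carriers in particular. The carriers above the filter had between 15.0 and 41113 estimated counts in a library. Their levels spanned 3 ranges: 8 carriers had a mean of at least 100 TPM, 18 lay between 10 and 100 TPM, and 12 lay below 10 TPM. Summed over all 62, the carriers reached 3225 TPM with siChd4 and 3444 TPM with siSCR.

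**Figure D2:**
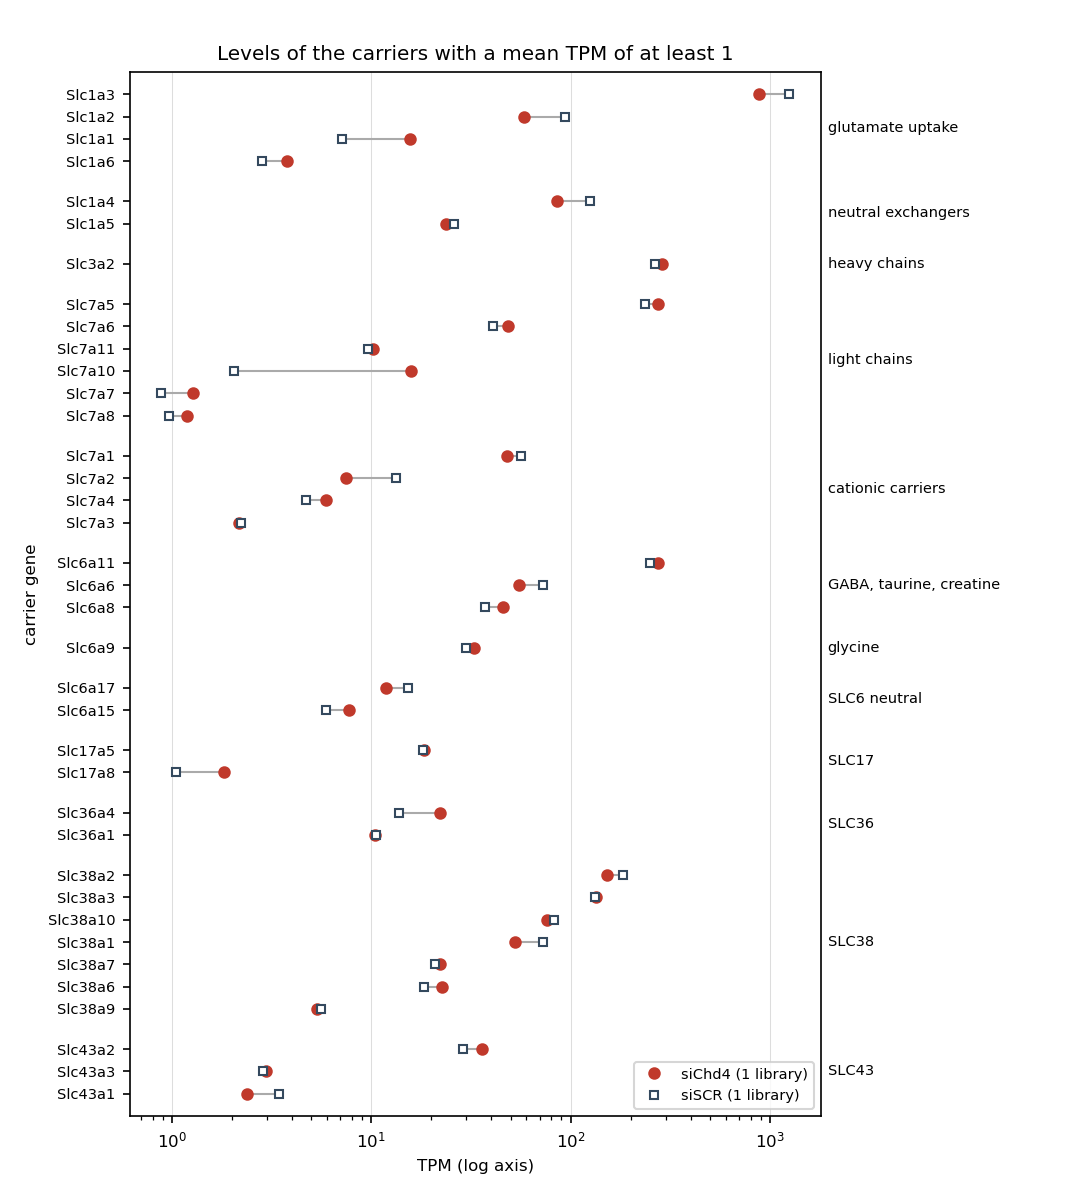
TPM of each of 37 carriers is drawn on a log axis, with filled circles for the siChd4 library and open squares for the siSCR library. The widest gaps are those of Slc7a10 (15.7 TPM with siChd4 against 2.04 TPM with siSCR) and Slc1a1 (15.6 TPM with siChd4 against 7.15 TPM with siSCR), and Slc1a3 is the most abundant carrier in both libraries.

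The carriers of high-affinity glutamate uptake differed in both directions. Slc1a3 (Entrez 20512), which encodes the carrier GLAST of radial glia and astrocytes, was at 878 TPM with siChd4 and 1254 TPM with siSCR. Its fold of 0.701 (0.690 to 0.711) lay just within the limit on the TPM plus 1 scale, with a log2 ratio of -0.51. Slc1a2 (Entrez 20511), which encodes GLT-1, the main glutamate carrier of mature astrocytes, was at 58.4 TPM with siChd4 and 94.1 TPM with siSCR (0.621-fold, 0.599 to 0.644). Slc1a1 (Entrez 20510), which encodes EAAC1, a carrier of neurons that also takes up cysteine, was at 15.6 TPM with siChd4 and 7.15 TPM with siSCR. This was a fold of 2.18 (1.85 to 2.58) from 477 estimated counts with siChd4 and 205 with siSCR. Of the 12882 genes, 275 had a higher log2 ratio than Slc1a1, and 357 had a lower one than Slc1a2.

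Slc1a6, a glutamate carrier known from Purkinje cells, was at 3.79 TPM with siChd4 and 2.83 TPM with siSCR, with an interval of 0.993 to 1.80 that includes 1. Slc1a7, of the retina, had 5.77 estimated counts with siChd4 and 2.33 with siSCR and did not pass the filter. Summed over the 5 genes, glutamate uptake carriers reached 956 TPM with siChd4 and 1358 TPM with siSCR. Slc1a3 alone made up 91.8% of this sum in siChd4 and 92.3% in siSCR, Slc1a2 6.11% and 6.93%, and Slc1a1 1.63% and 0.527%. The level of Slc1a2 was 3.74 times that of Slc1a1 in siChd4 and 13.2 times in siSCR. The order of the levels, Slc1a3 over Slc1a2 over Slc1a1 over Slc1a6, was the same in both libraries. Astrocyte markers that are no carriers also differed in both directions: the gap junction gene Gja1 was lower (40.8 TPM in siChd4 against 105 TPM with siSCR) and the secreted protein gene Sparcl1 higher (1059 against 653 TPM). Their part in the carriers' values was not tested.

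Neither of the SLC1 exchangers of neutral amino acids passed the limit. Slc1a4, which encodes ASCT1, an exchanger of alanine, serine, cysteine and threonine, was at 85.4 TPM with siChd4 and 126 TPM with siSCR (0.680-fold, 0.647 to 0.714). Slc1a5, which encodes the glutamine exchanger ASCT2, was at 23.7 TPM with siChd4 and 26.0 TPM with siSCR, with an interval of 0.809 to 1.03 that includes 1.

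**Figure D3:**
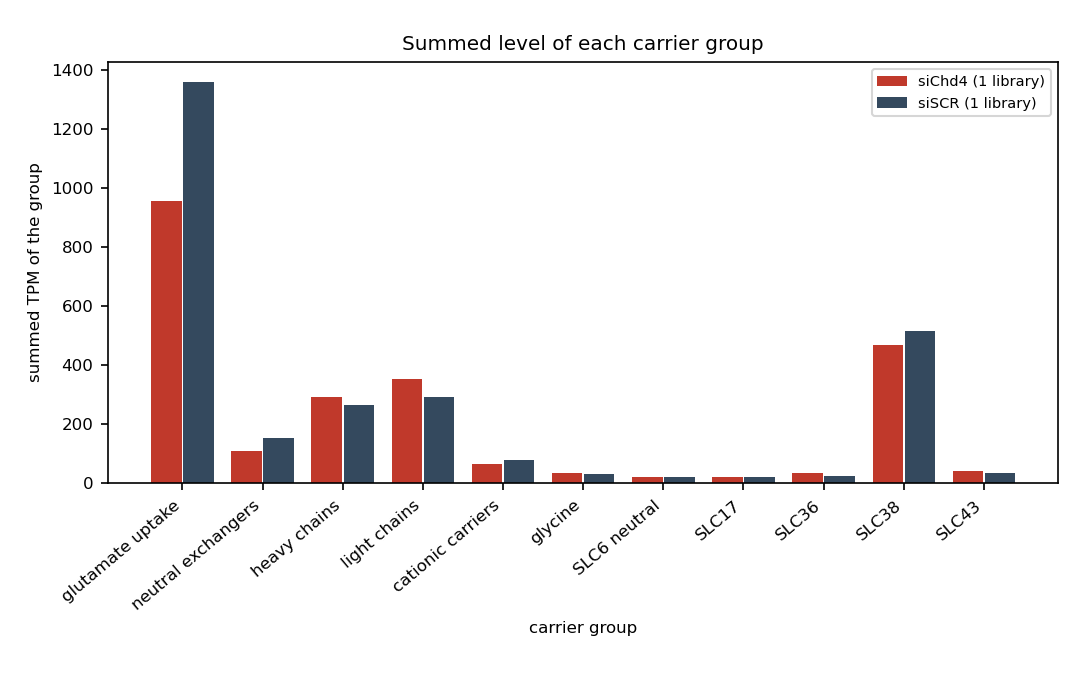
Bars give the TPM summed over the listed members of 11 carrier groups, with the siChd4 library left of the siSCR library. Glutamate uptake carriers summed to 956 TPM with siChd4 and 1358 TPM with siSCR, and SLC38 carriers to 467 TPM with siChd4 and 516 TPM with siSCR.

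Slc7a10 was the light chain that passed the limit, and the heavy chain Slc3a2 did not pass it. Slc3a2, which encodes the heavy chain CD98 that carries the light chains to the cell surface, was at 289 TPM with siChd4 and 265 TPM with siSCR (1.09-fold, 1.05 to 1.13). The other heavy chain gene, Slc3a1, of kidney and intestine, had 8.87 estimated counts with siChd4 and 4.94 with siSCR. All 6 light chains that passed the filter had a log2 ratio above 0, beside 44.5% of all genes, and for 3 of them the counting interval included 1.

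Slc7a10 (Entrez 53896) encodes Asc-1, which exchanges small neutral amino acids including D-serine and glycine. It was at 15.7 TPM with siChd4 and 2.04 TPM with siSCR, from 239 and 30.6 estimated counts. The fold was 7.71 (5.23 to 11.5) and the log2 ratio 2.46, and 10 of the 12882 genes had a higher one. Slc7a10 made up 4.47% of the summed TPM of the light chains in siChd4 and 0.702% in siSCR, and it was the third of the light chains by level in siChd4 and the fourth in siSCR. In the GENCODE M21 annotation, 237 of its 2111 exon bases (11.2%) overlap exons of Lrp3 on the opposite strand. The sources used here do not say whether the counting used strand, so reads in that stretch cannot be assigned. Lrp3 was at 52.2 TPM with siChd4 and 37.0 TPM with siSCR.

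The other light chains differed little. Slc7a5, which encodes LAT1, the carrier of leucine and other large neutral amino acids, was at 275 TPM with siChd4 and 236 TPM with siSCR (1.16-fold, 1.13 to 1.2). Slc7a6, which exchanges cationic for neutral amino acids, was at 48.7 TPM with siChd4 and 40.7 TPM with siSCR (1.2-fold, 1.11 to 1.29). Slc7a11, which encodes the cystine and glutamate exchanger xCT, was at 10.2 TPM with siChd4 and 9.65 TPM with siSCR, with an interval of 0.949 to 1.17. Slc7a7 (1.27 TPM with siChd4 and 0.88 TPM with siSCR) and Slc7a8 (1.19 and 0.96 TPM) were close to the filter, with intervals of 0.699 to 3.07 and 0.740 to 2.01 that include 1. Exons of Slc7a7 overlap those of Oxa1l on the opposite strand over 8.82% of their bases, so reads there cannot be assigned, and Oxa1l was at 75.5 TPM with siChd4 and 82.35 TPM with siSCR. The transcript length implied by estimated counts over TPM was, for Slc7a7 in siChd4, 0.827 times that in siSCR, relative to the median gene. The level of Slc3a2 was 0.821 times the summed level of the light chains in siChd4 and 0.910 times in siSCR.

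Among the cationic amino acid carriers, Slc7a2 was lower in siChd4. Slc7a2 (Entrez 11988), which encodes the arginine, lysine and ornithine carrier CAT2, was at 7.50 TPM with siChd4 and 13.3 TPM with siSCR (0.564-fold, 0.504 to 0.633). It had the lowest log2 ratio of the carriers above the filter (-0.75), and 260 of the 12882 genes had a lower one. Slc7a1, which encodes the widely expressed CAT1, was at 48.1 TPM with siChd4 and 56.2 TPM with siSCR (0.856-fold, 0.813 to 0.901). The level of Slc7a1 was 6.41 times that of Slc7a2 in siChd4 and 4.23 times in siSCR. Slc7a3, a carrier of the same kind, was at 2.16 TPM with siChd4 and 2.22 TPM with siSCR. Slc7a4, a relative for which amino acid transport is not established, was at 5.95 TPM with siChd4 and 4.68 TPM with siSCR. The intervals of both include 1.

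Slc7a14, a lysosomal relative, lay below the filter at 1.05 TPM with siChd4 and 0.26 TPM with siSCR, from 75.7 and 17.6 estimated counts, the most of any carrier below it. Its TPM fold was 4.04 (2.35 to 7.06), and it was singled out after its values were seen. On the TPM plus 1 scale it would be past the limit too if no filter were set.

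Slc6a11, a GABA carrier of astrocytes, lay within the limit, at 274 TPM with siChd4 and 250 TPM with siSCR (1.10-fold, 1.06 to 1.13). Slc6a12 and Slc6a13, which carry betaine and GABA, had at most 10.9 estimated counts in a library.

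Of the carriers of other small molecules in this family, the taurine carrier gene Slc6a6 was at 55.3 TPM with siChd4 and 73.1 TPM with siSCR (0.757-fold, 0.720 to 0.796). The creatine carrier gene Slc6a8 was at 45.8 TPM with siChd4 and 37.2 TPM with siSCR (1.23-fold, 1.14 to 1.33). Neither passed the limit, and neither interval includes 1. Slc6a9, which encodes the glycine carrier GlyT1, was at 32.6 TPM with siChd4 and 30.03 TPM with siSCR, and its interval of 0.983 to 1.2 includes 1. Exons of Slc6a9 overlap those of Ccdc24 on the opposite strand over 38.8% of their bases, so reads there cannot be assigned. Ccdc24 was at 5.76 TPM with siChd4 and 4.85 TPM with siSCR.

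Neutral amino acid carriers of the SLC6 family were at low levels. Slc6a17, which loads neutral amino acids into synaptic vesicles, was at 11.8 TPM with siChd4 and 15.2 TPM with siSCR (0.774-fold, 0.693 to 0.862). Slc6a15, a carrier of branched-chain amino acids and proline, was at 7.73 TPM with siChd4 and 5.89 TPM with siSCR (1.31-fold, 1.07 to 1.61). The monoamine carrier genes Slc6a2, Slc6a3 and Slc6a4, of noradrenaline, dopamine and serotonin neurons, had between 0.95 and 4.07 estimated counts in a library. The neuronal glycine and proline carrier genes Slc6a5 and Slc6a7 had 2.02 and 3 estimated counts with siChd4 and 0 with siSCR, at or under a floor of 3 counts. Slc6a14, Slc6a16, Slc6a18, Slc6a19 and Slc6a21 had at most 6.83 estimated counts in a library.

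Of the vesicular carriers of glutamate, GABA and glycine, Slc17a7 and Slc32a1 were below the filter on level and Slc17a8 passed it. Slc17a6, of the same family as Slc17a7 and on the list of neuronal markers, was not among the genes listed. Slc17a7, the vesicular glutamate carrier of many cortical neurons, had 9 estimated counts in either library. Slc32a1, the vesicular carrier of GABA and glycine, had 2 estimated counts with siChd4 and 1.71 with siSCR, under the floor of 3. Slc17a8, a vesicular glutamate carrier that also occurs in neurons using other transmitters, was at 1.82 TPM with siChd4 and 1.05 TPM with siSCR (1.73-fold, 1.12 to 2.83). It lay within the limit on the TPM plus 1 scale and past it with a pseudocount of 0.1. Slc17a5, which exports sialic acid from lysosomes, was at 18.4 TPM with siChd4 and 18.1 TPM with siSCR, with an interval that includes 1. Slc17a9, the vesicular nucleotide carrier, had 12 estimated counts with siChd4 and 14 with siSCR, and Slc17a1 and Slc17a2 at most 1. Of 16 neuronal markers above the filter, 7 were at least 1.5-fold higher in siChd4 and 0 lower, among them the tubulin gene Tubb3 (40.02 TPM with siChd4 and 8.70 TPM with siSCR) and the synaptic vesicle gene Syn1 (33.3 and 13.2 TPM). The other 9 lay within the limit, such as, chosen after their values were seen, Elavl4 (35.2 TPM with siChd4 and 31.03 TPM with siSCR) and Map2 (516 and 427 TPM). Of 12 oligodendrocyte lineage markers above the filter, 8 were at least 1.5-fold higher in siChd4 and 0 lower. Over all genes that passed the filter, 6.75% were higher and 4.47% lower. The part of either set of markers in the values of Slc1a1 and Slc7a10 was not tested.

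Of the proton-coupled SLC36 carriers, Slc36a4 was higher in siChd4 and Slc36a1 equal within counting error. Slc36a4 (Entrez 234967), a carrier of proline and tryptophan, was at 22.1 TPM with siChd4 and 13.7 TPM with siSCR (1.61-fold, 1.46 to 1.79). Slc36a1, which exports small amino acids from lysosomes, was at 10.5 TPM with siChd4 and 10.6 TPM with siSCR, with an interval of 0.866 to 1.13. The level of Slc36a1 was 0.473 times that of Slc36a4 in siChd4 and 0.771 times in siSCR. Slc36a2 had 2.99 estimated counts with siChd4 and 0 with siSCR, under the floor.

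None of the 7 SLC38 carriers above the filter passed 1.5-fold. Slc38a2, which encodes the sodium-coupled system A carrier SNAT2, was at 152 TPM with siChd4 and 183 TPM with siSCR (0.829-fold, 0.80 to 0.859). Its neighbour in the genome, Slc38a1, which encodes SNAT1, was at 52.6 TPM with siChd4 and 72.3 TPM with siSCR (0.727-fold, 0.694 to 0.762). Slc38a4, of the same system and known from liver, had 4.99 estimated counts with siChd4 and 7.90 with siSCR, with an interval of 0.157 to 2.11 that includes 1. Slc38a3, the system N glutamine carrier of astrocytes, was at 135 TPM with siChd4 and 132 TPM with siSCR, with an interval of 0.966 to 1.08.

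The less studied Slc38a10 was at 76.6 TPM with siChd4 and 82.3 TPM with siSCR (0.930-fold, 0.880 to 0.984), and Slc38a6 at 22.6 and 18.4 TPM (1.23-fold, 1.11 to 1.36). Slc38a7, a lysosomal glutamine exporter, was at 22.1 TPM with siChd4 and 20.9 TPM with siSCR, and Slc38a9, the lysosomal arginine sensor of the kinase complex mTORC1, at 5.35 and 5.60 TPM. The intervals of both include 1. Slc38a11 had 7.33 estimated counts with siChd4 and 8.98 with siSCR. Summed over the 9 listed genes, SLC38 carriers reached 467 TPM with siChd4 and 516 TPM with siSCR, and Slc38a2 made up 32.6% and 35.6% of this.

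Of the SLC43 carriers, Slc43a2, which encodes LAT4, a facilitative carrier of branched-chain and aromatic amino acids, was at 35.8 TPM with siChd4 and 28.8 TPM with siSCR (1.24-fold, 1.15 to 1.35). Slc43a1, the related LAT3, was at 2.37 TPM with siChd4 and 3.44 TPM with siSCR. Slc43a3, a carrier of purine bases, was at 2.97 TPM with siChd4 and 2.85 TPM with siSCR. The intervals of Slc43a1 and Slc43a3 include 1.

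**Figure D4:**
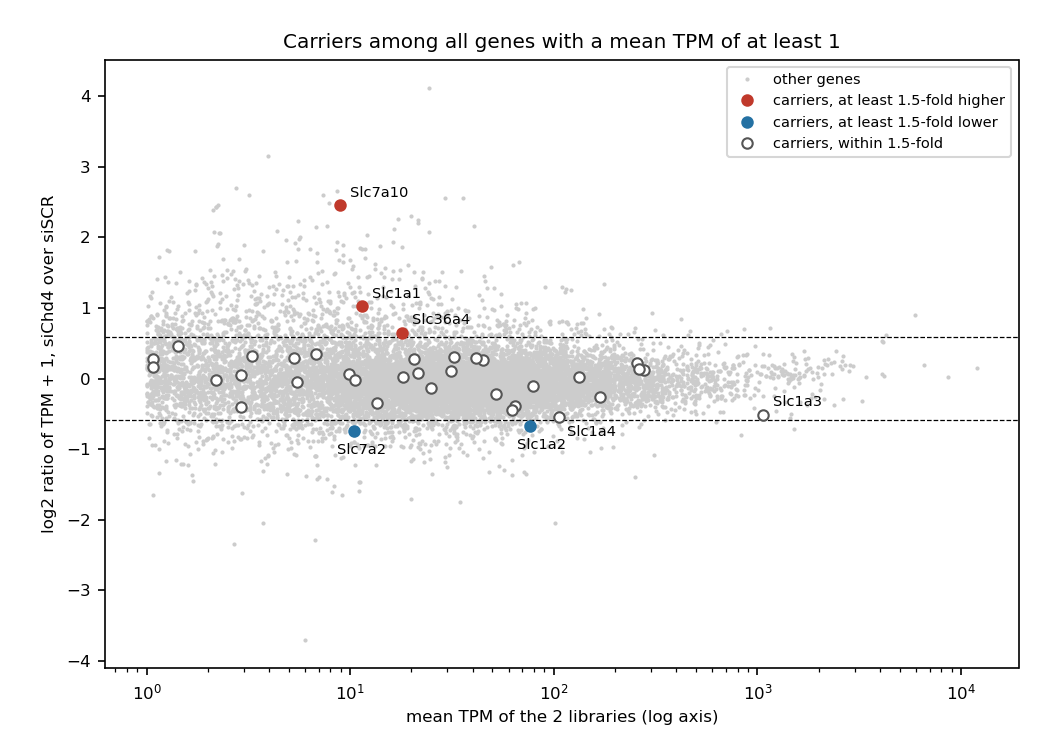
Each point is a gene with a mean of at least 1 TPM, by its mean TPM (log axis) and its log2 ratio of TPM plus 1, with 37 carriers in colour or outlined in front of the other genes. Dashed lines mark 1.5-fold in either direction; 5 of these carriers lie past them, of which Slc7a10, at 2.46, is the farthest out.

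Amino acid shortage and oxidative stress raise several carriers through the factors ATF4 and NRF2. Carriers whose promoters hold the letters these factors bind are described here. Promoters were taken from RefSeq (GRCm38.p6, from 250 bases before to 50 after each annotated start), which held 26 of the 38 carriers. The core of the amino acid response element, TGATGNAA on either strand, occurred in 3 of the 26, Slc7a11, Slc1a4 and Slc7a7, which is 11.5% beside 4.51% of all 27025 genes of the promoter table and 2.60% of those above the filter. The matching stretches are shown because these are the carriers whose promoters hold it, with the core in capitals and the gene's strand read 5′ to 3′:
Slc7a11: cTGATGCAAacctggagaatTTGCATCAtc
Slc1a4: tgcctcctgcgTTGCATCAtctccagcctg
Slc7a7: ccgcttgggctTGATGAAAggttcactggg

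The Slc7a11 stretch, at chr3:50443651-50443680 on the minus strand, holds the core once on either strand, with the outermost bases 66 and 40 bases before the start. The Slc1a4 stretch, at chr11:20332699-20332728 on the minus strand, holds it across the start itself, and the Slc7a7 stretch, at chr14:54418067-54418096 on the minus strand, holds it before the start that lies farther upstream of those listed for that gene. Another match in Slc7a7, not shown, lies across that start. These carriers did not share a direction: the log2 ratio was -0.55 for Slc1a4, 0.07 for Slc7a11 and 0.27 for Slc7a7, and the counting intervals of Slc7a11 and Slc7a7 include 1. The antioxidant response element core, TGACNNNGC on either strand, occurred in 8 of the 26 carriers (30.8%), beside 14.0% of all genes of the table and 17.0% of those above the filter. Slc7a11 was not among the 8, within this window. These 8 did not share a direction either, and all lay within the limit. The log2 ratio was -0.40 for Slc43a1, -0.27 for Slc38a2, -0.22 for Slc7a1 and -0.01 for Slc36a1. It was 0.11 for Slc6a9, 0.13 for Slc6a11, 0.26 for Slc7a6 and 0.46 for Slc17a8. A match in letters is a description and not a binding site. Sites outside this window, and carriers without a promoter in the table, were not scanned. The part of ATF4 and NRF2 in the carriers' values was not tested.

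Genes of the integrated stress response and of NRF2, which include known regulators of these carriers, all lay within the limit. Their part in the carriers' values was not tested. Of 19 genes, 0 passed 1.5-fold in either direction, the median log2 ratio was 0.02, and the most abundant were the serine synthesis genes Psat1 (549 TPM with siChd4 and 532 TPM with siSCR) and Phgdh (488 and 480 TPM). The widest ratios among the 19 were those of Nqo1, an NRF2 target (39.2 TPM with siChd4 and 27.4 TPM with siSCR, 1.43-fold, 1.24 to 1.65), and of the transcription factor gene Cebpb (11.9 and 8.37 TPM, 1.42-fold, 1.09 to 1.85). Atf4 itself was at 209 TPM with siChd4 and 191 TPM with siSCR. These 3 genes were named outside the rule for naming genes, after their values were seen. Of 39 enzymes of amino acid and transmitter metabolism, 1 was at least 1.5-fold higher, the branched-chain keto acid dehydrogenase gene Bckdha (72.7 TPM with siChd4 and 47.4 TPM with siSCR), and 0 were lower. The median of these enzymes was -0.13, and 16 of the 39 lay above 0, beside 44.5% of all genes.

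Transcript length moved with the log2 ratio over all genes, and both lower carriers have long transcripts. The median log2 ratio was -0.21 in the longest 10% of genes and 0.01 in the shortest 10%. The longest 10% held 6 carriers. Among them, Slc7a11, Slc38a9, Slc7a1 and Slc38a1 lay within the limit, with log2 ratios of 0.07, -0.06, -0.22 and -0.45. The part of length in the carriers' values was not tested. Length was implied by the ratio of estimated counts to FPKM, and was 10432 bases for Slc1a2 and 7713 bases for Slc7a2, against a median of 3880 bases for the 38 carriers and 2939 bases for all genes. With the trend subtracted, the log2 ratio of Slc1a2 was -0.46, within the limit of 1.5-fold, and that of Slc7a2 was -0.59, past it. The 4 higher carriers stayed past the limit, with 2.42 for Slc7a10, 1.04 for Slc1a1 and 0.74 for Slc36a4. Exons of Slc1a1 share 32.0% of their bases with a gene on the opposite strand, 4430402I18Rik, which was at 3.14 TPM with siChd4 and 4.24 TPM with siSCR.

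**Figure D5:**
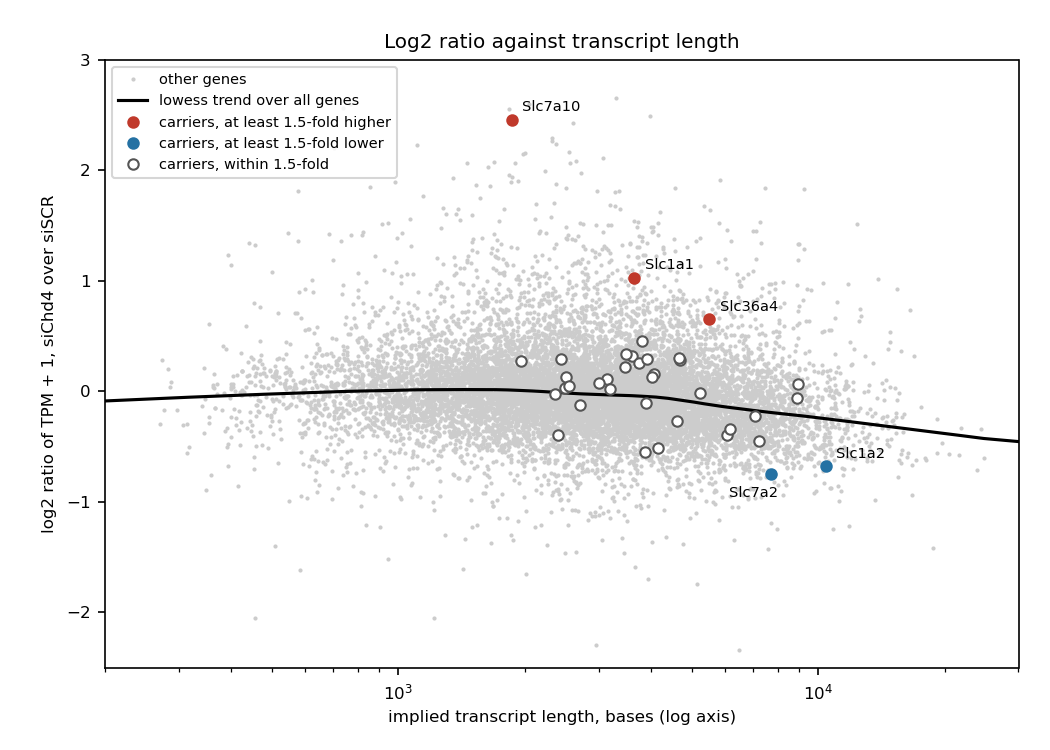
The log2 ratio of TPM plus 1 is plotted against implied transcript length (log axis), with 37 carriers in front of the other genes and the lowess trend over all genes as a line; 3 genes lie outside the axes. The trend runs lower for longer transcripts, and Slc1a2 (10432 bases) and Slc7a2 (7713 bases) lie below it.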

How the data were processed

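RNA-seq of 1 siChd4 and 1 siSCR library was analysed from 1 table. Per the file headers, the authors deposited FPKM, TPM and read counts per gene. The deposited counts were treated as estimated counts, as only 17.8% (siChd4) and 16.0% (siSCR) of the values were whole. The deposited TPM sum to 1000000 per library. Per the submitters' processing notes, the genome build was mm39. The sources used here name no aligner or counting tool and do not state the use of strand. The carriers and gene lists were chosen with earlier results of these data known.

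The measure was log2 of (siChd4 TPM + 1) over (siSCR TPM + 1), for genes with a mean of at least 1 TPM. It understates the difference of low genes, so TPM folds stand beside it. Intervals are exact Clopper-Pearson 95% intervals from counts rounded to whole numbers. They cover counting error only. The floor was 3 counts per library. No test was possible with 1 library per group. Carriers past 1.5-fold or with a mean of at least 10 TPM were named with full values, and the others with levels. List genes were named where past 1.5-fold, or the 2 most abundant where none was; any gene named outside this, including markers and genes with shared exons, was chosen after its values were seen. Python 3.11.15, SciPy 1.17.1, statsmodels 0.14.6 (lowess, span 0.3) and edgeR 4.0.16 (TMM factors for CPM only) were used. Intervals were checked on simulated counts. Exon overlaps came from GENCODE M21 (GRCm38) by Entrez number, with all 38 carriers matched. A few genes are counted but not reported by name here or drawn. A planned comparison of protein sequences was not run.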

Additional observations from a re-analysis of the deposited data

How the results depend on the processing

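Every alternative here was planned, with the lists and carriers chosen as stated above. The number of carriers past the limit changed in 4 settings: with a 2-fold limit 2 were higher (Slc7a10 and Slc1a1) and 0 lower, and with the length trend subtracted 1 was lower, since Slc1a2 came within the limit at -0.46; 5 were higher with a pseudocount of 0.1, which added Slc17a8, and with no filter, which added Slc7a14. All 6 carriers stayed past 1.5-fold with a pseudocount of 0.1, median-of-ratios, upper quartile and TMM scaling, FPKM, other filters, without genes of shifted transcript length, and with the counting interval required. Over all genes, 291 were higher and 81 lower at 2-fold, 533 were higher with a mean of at least 5 TPM, and 295 were lower on FPKM. The pseudocount was 1 on FPKM too, where it weighs more because FPKM values were smaller than TPM. The median log2 ratio of all genes was 0.02 on FPKM and -0.04 on TPM. The part of either in the 295 was not tested. Of 228 single values of carriers under other settings, 210 stayed within counting error. None of the 6 turned its sign, but 4 carriers within 0.08 of 0 did, Slc7a3, Slc36a1, Slc38a7 and Slc38a9. Depth limits the carriers near 3 counts. No paired analysis was possible because there is 1 library on each side, and no library could be left out.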

Other observations

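Other carriers of amino acids, peptides and transmitters outside the families above were listed for comparison, with the vesicle glycoprotein genes Sv2a, Sv2b and Sv2c. Of this list, 27 were in the table. Of the 18 that passed the filter, 3 were at least 1.5-fold higher in siChd4 and 1 lower. Over all 12882 genes that passed it, 6.75% were higher and 4.47% lower. The synaptic vesicle glycoprotein genes Sv2c (10.7 TPM with siChd4 and 3.17 TPM with siSCR, 3.38-fold, 2.71 to 4.26) and Sv2a (56.3 and 29.9 TPM, 1.88-fold, 1.73 to 2.04) were higher, as was Slc29a4, a low-affinity monoamine carrier (65.7 and 42.0 TPM, 1.56-fold, 1.44 to 1.70). Slc15a2, a carrier of small peptides known from astrocytes and choroid plexus, was lower (58.0 TPM with siChd4 and 97.1 TPM with siSCR, 0.598-fold, 0.557 to 0.642). The vesicular monoamine carrier gene Slc18a2 was at 2.45 TPM with siChd4 and 2.51 TPM with siSCR. Slc25a18, a mitochondrial glutamate carrier gene, was at 266 TPM with siChd4 and 311 TPM with siSCR, and the mitochondrial aspartate and glutamate exchanger gene Slc25a12 at 73.7 and 90.4 TPM. The Slc25 genes on this list had log2 ratios on both sides of 0. Slc25a22 was at 15.6 TPM with siChd4 and 13.2 TPM with siSCR (1.18-fold, 1.002 to 1.39).

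Enzymes that handle glutamate and GABA after uptake were chosen for naming here after their values were seen, and all lay within 1.5-fold. Glul, which makes glutamine from glutamate, was at 422 TPM with siChd4 and 338 TPM with siSCR. Glud1, which feeds glutamate into the citric acid cycle, was at 392.2 TPM with siChd4 and 547 TPM with siSCR. The GABA breakdown genes Abat (52.2 TPM with siChd4 and 71.4 TPM with siSCR) and Aldh5a1 (33.0 and 49.1 TPM) had log2 ratios below 0, and the GABA synthesis gene Gad1 was at 26.5 and 22.0 TPM.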
